A study of Mus musculus with 16 samples.

Results

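The transcription factors SNAI1, SNAI2, TWIST1, TWIST2, ZEB1, ZEB2, FOXD3 and PRRX1 act in epithelial-mesenchymal transition (EMT) and in the neural crest. These 8 genes were followed in murine embryonic stem (ES) cells grown on PA6 cells, which are stromal cells derived from mouse bone marrow, and in PA6 alone. They were taken by name from the 30854 target names of an Illumina MouseWG-6 v2.0 array, where they were represented by 15 of 45281 probes. Of these probes, 12 passed the filter on dim probes, and 7 of the 8 genes entered the tests, among 14829 genes in all.

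Co-cultures of both cell types and mono-cultures of PA6 had spent 7 days in medium free of serum, and each culture was read on 1 array. There were 2 co-cultures without growth factors (-GFs), 3 with FGF2 at 20 ng/ml and 2 with BMP4 at 10 ng/ml, and 3 PA6 mono-cultures of each kind, which makes 16 arrays. One label field and the methods of the study give 3 days of exposure to the factor while another label field gives 7 days, and the methods state a lower dose of BMP4. The ES cells carried a green fluorescent protein gene knocked in under the τ promoter and had been maintained on mouse embryonic fibroblasts before seeding. The labels speak of biological replicates with 1 well per treatment, and precision is limited by the few arrays per group.

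EMT is the process by which cells of an epithelial sheet lose their junctions and become motile, as happens in the primitive streak and when neural crest cells leave the neural tube. SNAI and ZEB proteins are zinc finger repressors that bind E-box elements in promoters of epithelial genes such as CDH1, which encodes E-cadherin. TWIST proteins are basic helix-loop-helix factors, FOXD3 is a forkhead factor of pluripotent cells and of the early neural crest, and PRRX1 is a homeobox factor of mesenchyme. Stromal and fibroblastic cells also express many of these genes.

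The sequence these repressors are known to read, CACCTG or CAGGTG on the other strand, was looked for in the 250 bases before each transcription start in the RefSeq promoter table (assembly GRCm38.p6), where 6 of the 8 genes matched and SNAI2 and ZEB1 were missing. It was present in 5657 of 32851 windows (17.2%), and counted by gene in 19.4% of all genes. Among the 6 transcription factors only SNAI1 held it, 126 bases before the start, and the TWIST1 window held none. Among 11 genes with a window of a list of 15 epithelial genes, 9 held it, including CLDN4 and CLDN6, which encode tight junction claudins. The windows of SNAI1 and TWIST1, which belong to genes whose BMP4 response is described next, and of CLDN4 and CLDN6 as epithelial genes with the element are shown 5′ to 3′ on the strand of the gene, with the element in capitals. A match describes the letters of the window only.
SNAI1 (chr2:167537945-167538194, plus strand, promoter): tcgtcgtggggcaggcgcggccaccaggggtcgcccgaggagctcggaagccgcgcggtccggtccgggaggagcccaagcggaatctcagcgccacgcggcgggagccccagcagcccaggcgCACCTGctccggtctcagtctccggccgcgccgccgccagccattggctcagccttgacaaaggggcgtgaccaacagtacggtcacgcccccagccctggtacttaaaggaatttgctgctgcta
TWIST1 (chr12:33957421-33957670, plus strand, promoter): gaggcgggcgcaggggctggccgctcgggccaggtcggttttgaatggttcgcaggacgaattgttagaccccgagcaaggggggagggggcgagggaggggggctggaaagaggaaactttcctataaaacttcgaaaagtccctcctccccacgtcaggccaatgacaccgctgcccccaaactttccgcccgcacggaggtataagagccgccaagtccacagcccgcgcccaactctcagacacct
CLDN4 (chr5:134946935-134947184, minus strand, promoter): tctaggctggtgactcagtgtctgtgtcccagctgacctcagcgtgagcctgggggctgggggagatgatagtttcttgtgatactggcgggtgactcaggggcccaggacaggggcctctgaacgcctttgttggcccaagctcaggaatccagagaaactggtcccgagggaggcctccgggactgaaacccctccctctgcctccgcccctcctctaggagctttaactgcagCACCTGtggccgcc
CLDN6 (chr17:23679115-23679364, plus strand, promoter): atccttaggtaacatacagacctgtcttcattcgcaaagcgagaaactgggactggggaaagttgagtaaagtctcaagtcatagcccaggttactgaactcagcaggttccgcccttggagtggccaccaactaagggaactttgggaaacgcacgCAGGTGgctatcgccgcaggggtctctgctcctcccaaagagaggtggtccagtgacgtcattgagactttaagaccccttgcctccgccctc

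Levels are given as normalized intensities on the log2 scale, and a probe was taken as detected on an array when its detection p-value was under 0.05. From 37.3% to 47% of probes were detected on an array. A gene was called changed when its Benjamini-Hochberg adjusted p in limma fell under 0.1 with a log2 fold change beyond 1 in either direction, and fitted changes are given with their standard error (SE). Of the markers checked, all 7 stromal markers were detected on all 16 arrays, and all 6 pluripotency markers were detected on all 7 co-culture arrays. The summed level of the stromal markers lay between 15.6 and 15.92 in co-cultures and between 16.48 and 17.14 in PA6 mono-cultures, a sum in which DCN has most weight. One by one, 5 of the 7 were called lower in co-cultures than in PA6 mono-cultures without growth factors and all 7 had lower means, with a median difference of -2.48. In such mixed RNA, fewer cells of a type and less RNA per cell cannot be told apart.

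**Figure D1:**
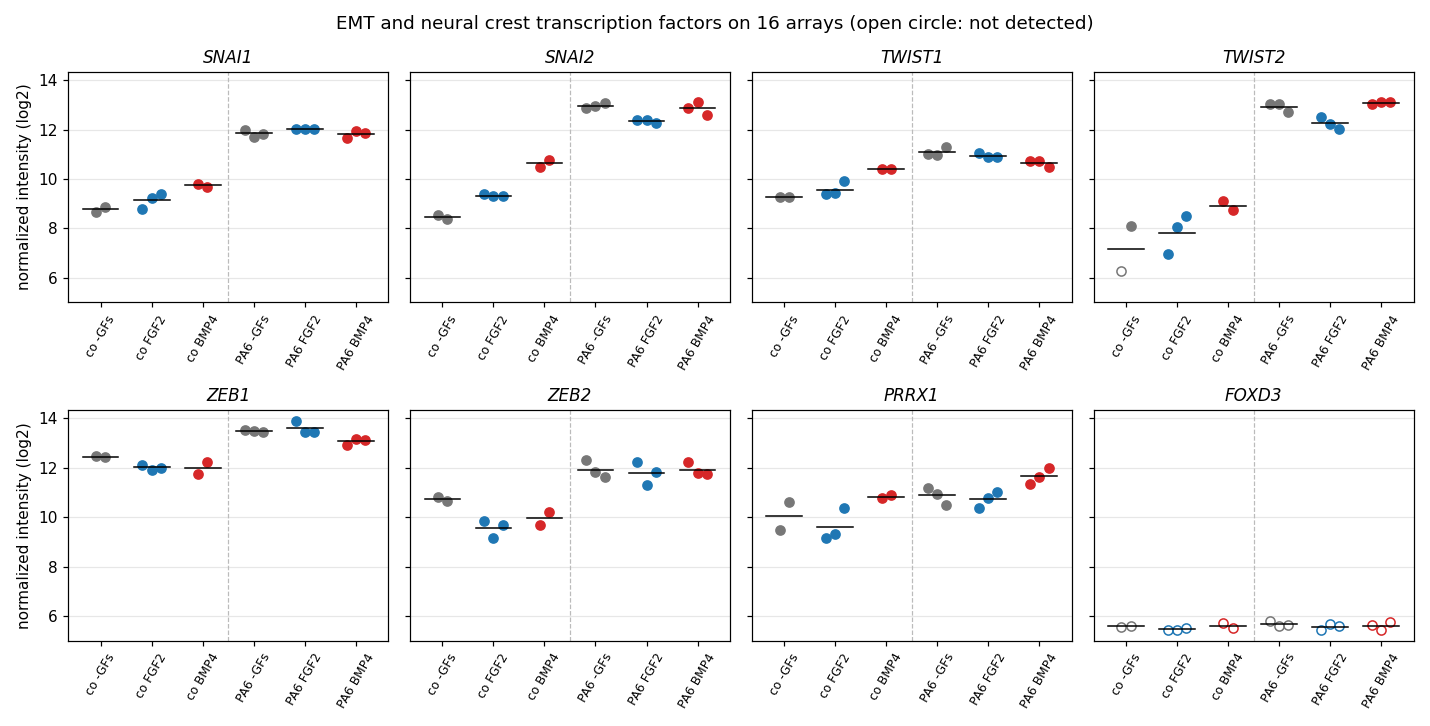
Normalized intensity (log2) of each transcription factor on every array, with the group mean as a line, co-cultures left and PA6 mono-cultures right of the dashed line. SNAI2 had means of 8.45 (-GFs), 9.33 (FGF2) and 10.62 (BMP4) in co-cultures, and the FOXD3 probe was not detected on any array.

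SNAI2, the repressor also known as Slug, was the member with the largest called response to BMP4 in co-cultures. Its levels were 8.52 and 8.39 without growth factors, 9.39, 9.30 and 9.29 with FGF2 and 10.48 and 10.77 with BMP4. The 3 groups did not overlap, and all BMP4 arrays lay above all FGF2 arrays, which lay above both -GFs arrays. With BMP4, SNAI2 rose by 2.17 ± 0.19 on the log2 scale, a 4.5-fold change (SE; adjusted p = 0.00656, limma). This call was kept in all 18 alternatives, with adjusted p from 1.12e-05 to 0.0793. The study picked SNAI2 from genes changed on these arrays and reported by PCR that BMP4 raised it in co-cultures. The rise of SNAI2 with BMP4 here is thus not independent evidence. The summed level of 4 markers of epidermal cells, whose basal layer is known to express SNAI2, was also higher on the BMP4 arrays (13.67 to 14.83) than without growth factors (7.99 to 8.19), and the part of such cells in the rise was not tested.

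TWIST1, a regulator of mesoderm and cranial neural crest, was the other gene called with BMP4 in co-cultures. Its levels were 9.26 and 9.27 without growth factors, 9.38, 9.42 and 9.91 with FGF2 and 10.39 and 10.41 with BMP4. The BMP4 arrays were above all other co-cultures and the groups did not overlap. The rise with BMP4 was 1.13 ± 0.23, or 2.2-fold (SE; adjusted p = 0.0616). The call was not kept with median scaling, no background correction, no filter, probes detected on all 16 arrays or a block for column runs. This call was lost when any 1 of the 4 arrays compared was left out, with changes of 1.13 without -GFs replicate 1 (adjusted p = 0.203), 1.14 without -GFs replicate 2 (0.188), 1.14 without BMP4 replicate 1 (0.26) and 1.13 without BMP4 replicate 2 (0.186). Over 18 alternatives the adjusted p ran from 0.00295 to 0.26.

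With BMP4 in co-cultures, 2 of the 7 tested transcription factors were thus called, both higher, against a background of 3.76% of all genes called and 2.28% called higher. Their median change was 0.97, beside a median near 0 over all genes (-0.0015). SNAI1, the founding member of the Snail family, measured 8.66 and 8.88 without growth factors and 9.81 and 9.66 with BMP4, groups that did not overlap. Its difference of 0.97 ± 0.25 fell short of both limits (SE; adjusted p = 0.118). A second, dimmer SNAI1 probe was undetected on both -GFs arrays and gave 0.35 ± 0.33 (SE; adjusted p = 0.742).

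TWIST2, a mesenchymal and dermal relative of TWIST1, had the largest spread of the 7 genes among -GFs (SD 1.29, n = 2) and FGF2 (SD 0.78, n = 3) co-cultures. It measured 6.26 and 8.09 without growth factors, 6.96, 8.04 and 8.48 with FGF2 and 9.10 and 8.74 with BMP4. On the array with 6.26 the probe was not detected, and the -GFs and FGF2 arrays overlapped. The difference with BMP4 was 1.75 ± 0.66 and did not pass the test (SE; adjusted p = 0.278). It ranged from 0.84 without -GFs replicate 1 to 2.67 without -GFs replicate 2 over 17 alternatives, and was called in 2 of them, with median scaling and in a fit to all 16 arrays.

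PRRX1 was read by 5 probes, of which 3 were detected on all 16 arrays. The brightest gave 9.49 and 10.63 without growth factors, 9.14, 9.32 and 10.39 with FGF2 and 10.78 and 10.89 with BMP4. Only the BMP4 arrays lay close together. The differences between BMP4 and -GFs by the 3 detected probes were 0.78, 0.83 and 0.74, and none passed the test (adjusted p = 0.559 for the first).

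ZEB1 and ZEB2, the pair of ZEB repressors, were the genes whose levels lay below those of -GFs co-cultures with both factors. ZEB2 measured 10.82 and 10.64 without growth factors, 9.85, 9.17 and 9.68 with FGF2 and 9.68 and 10.22 with BMP4. All arrays with a factor lay below both -GFs arrays, and the FGF2 and BMP4 arrays overlapped. With FGF2, ZEB2 fell by 1.16 on the log2 scale, with an SE of 0.27, or 2.24-fold (adjusted p = 0.0502). With a block for replicate numbers (-1.22, adjusted p = 0.128) or for column runs (-0.96) ZEB2 was not called. The call was lost without -GFs replicate 1 (-1.07, adjusted p = 0.221), without -GFs replicate 2 (-1.25, 0.153) and without FGF2 replicate 2 (-0.96, 0.111). Over 18 alternatives the adjusted p ran from 0.0194 to 0.221.

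A further probe listed under ZFHX1B, the older name of ZEB2, measured 8.48 and 7.84 without growth factors and 6.96, 6.17 and 6.72 with FGF2, and also fell (-1.54 ± 0.29, adjusted p = 0.0317). This probe was added after the values had been seen. The other probes listed as ZEB2 were not detected on any array. With BMP4 the difference of ZEB2 was -0.78 ± 0.29 (SE; adjusted p = 0.273). ZEB1, which measured 12.46 and 12.42 without growth factors, lay between 11.93 and 12.11 with FGF2 and between 11.76 and 12.22 with BMP4. Its differences of -0.42 and -0.44 did not pass the test (adjusted p = 0.249 and 0.396).

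With FGF2 in co-cultures, ZEB2 was the only one of 7 members called, against 7.42% of all genes called and 2.36% called lower. The median change of the 7 was 0.30, beside -0.0579 over all genes. SNAI2 was 0.87 ± 0.17 higher with FGF2, which passed the adjusted p (0.0324) but not the limit on size. SNAI1, at 8.77, 9.22 and 9.41 with FGF2, overlapped the -GFs arrays (0.37 ± 0.23, adjusted p = 0.396). TWIST1 and PRRX1 differed by 0.30 and -0.44 (adjusted p = 0.453 and 0.63).

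BMP4 and FGF2 co-cultures were also set against each other. SNAI2 was called, 1.29 ± 0.17 higher with BMP4 than with FGF2, or 2.45-fold (SE; adjusted p = 0.0378), where 1.44% of all genes were called and 0.755% were called higher. This call was lost without FGF2 replicate 2 (1.28, adjusted p = 0.136), without FGF2 replicate 3 (1.28, 0.111) and without BMP4 replicate 2 (1.15, 0.26), and over 18 alternatives the adjusted p ran from 0.000738 to 0.26. PRRX1 (1.22 ± 0.45, adjusted p = 0.293), TWIST1 (0.84 ± 0.21, 0.146) and SNAI1 (0.60 ± 0.23, 0.302) were not called. The comparisons of FGF2 and of BMP4 with -GFs share their control arrays.

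**Figure D2:**
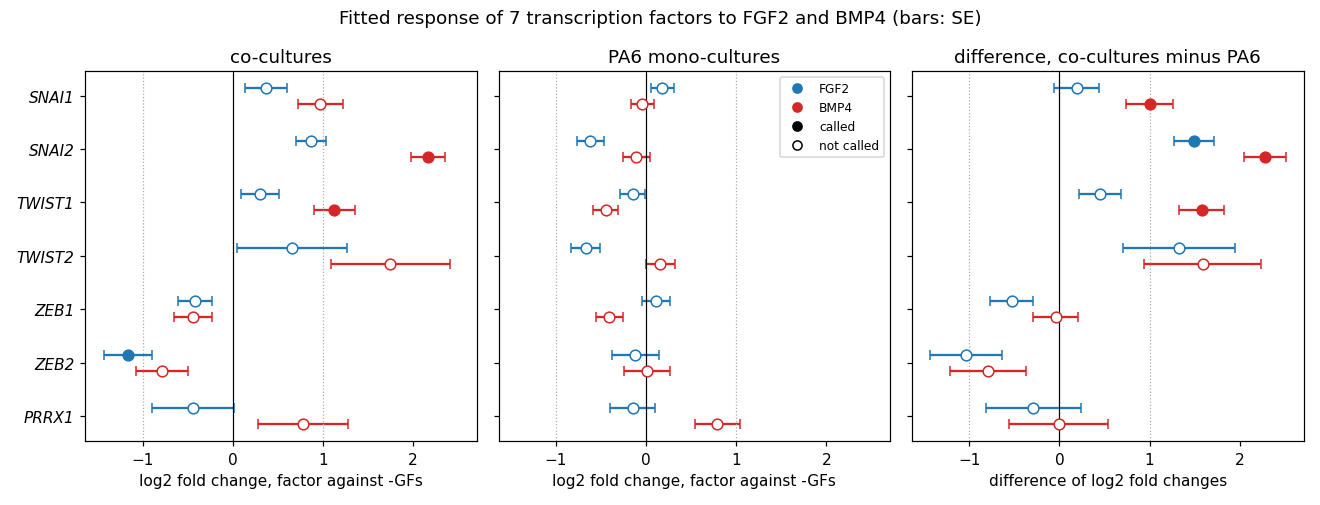
Fitted log2 fold change with FGF2 (blue) and BMP4 (red) against -GFs in co-cultures and in PA6 mono-cultures, and the difference between both kinds of culture; bars are SE, filled points were called and dotted lines mark the limit on size. In co-cultures SNAI2 and TWIST1 were called with BMP4 and ZEB2 with FGF2, and no factor was called in PA6 mono-cultures.

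In PA6 mono-cultures none of the 7 transcription factors was called by limma with FGF2, where 0.0270% of all genes were called, or with BMP4, where 0% were. At an unadjusted p under 0.05 there were 2 members with FGF2 and 3 with BMP4, beside 1536 and 1330 of all genes. With FGF2, SNAI2 measured 12.40, 12.40 and 12.26, below the 12.89, 12.94 and 13.08 of the -GFs arrays (-0.62 ± 0.15, adjusted p = 0.227). TWIST2 measured 12.50, 12.23 and 12.02 with FGF2, below the 13.04, 13.04 and 12.69 of the -GFs arrays (-0.67 ± 0.16, adjusted p = 0.22).

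With BMP4, TWIST1 in PA6 mono-cultures measured 10.72, 10.71 and 10.50, below 10.99, 10.98 and 11.30 without growth factors (-0.45 ± 0.14, adjusted p = 0.529). PRRX1 measured 11.36, 11.62 and 12.01 with BMP4, above 11.19, 10.95 and 10.50 (0.79 ± 0.25, adjusted p = 0.529). Neither pair of groups overlapped, and neither difference passed the test. SNAI1 had group means of 11.84, 12.02 and 11.81 for -GFs, FGF2 and BMP4, and differed from -GFs by 0.18 (adjusted p = 0.648) and -0.04 (0.956).

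The responses of both kinds of culture were compared in a fit to all 16 arrays. The BMP4 effect differed for 3 of 7 members, all with a higher change in co-cultures, against 4.25% of all genes called and 2.63% called higher. These were SNAI2 with a difference of 2.28 ± 0.23 (adjusted p = 0.000163), TWIST1 with 1.58 ± 0.25 (0.00323) and SNAI1 with 1.003 ± 0.26 (0.0557). The second, dimmer SNAI1 probe gave -0.64 ± 0.73, which was not called (0.757). The BMP4 change was also higher in co-cultures for 6 of 7 stromal markers (median 0.81) and 15 of 15 mesenchymal genes (median 0.70), with none called. The median over all genes was 0.00475. The part of stromal cells in the member differences was not tested. SNAI1 lay just over the limit on size and lost its call without co-culture -GFs replicate 1 (0.90), co-culture BMP4 replicate 1 (0.93), PA6 -GFs replicate 1 (0.92) or PA6 BMP4 replicate 1 (0.92). It was also lost with median scaling (1.20, adjusted p = 0.205), no background correction (0.81), an offset of 50 (0.95), no filter (adjusted p = 0.104) and a block for column runs (0.93), and its adjusted p ranged between 0.0204 and 0.205 in 26 alternatives. SNAI2 and TWIST1 were called in all 26, with adjusted p up to 0.00121 and 0.0214. The TWIST2 difference of 1.59 ± 0.65 (adjusted p = 0.252) was called without co-culture -GFs replicate 2 (2.505, adjusted p = 0.0343).

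The FGF2 effect differed for SNAI2 alone, by 1.49 ± 0.22 (SE; adjusted p = 0.00143), where 7.92% of all genes were called and 4.94% were called higher. SNAI2 was higher with FGF2 in co-cultures and lower with FGF2 in PA6 mono-cultures, as its values above show. This difference was called in all 26 alternatives (adjusted p up to 0.0328). The ZEB2 difference was -1.04 ± 0.40 (SE; adjusted p = 0.144), and was called without PA6 FGF2 replicate 2 (-1.28, adjusted p = 0.0776). The TWIST2 difference of 1.33 ± 0.62 (adjusted p = 0.229) was called without co-culture -GFs replicate 2 (2.25, adjusted p = 0.033) and without co-culture FGF2 replicate 1 (1.77, 0.0842), so the count went from 1 to 2 without each of these 3 arrays.

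All 7 tested transcription factors had lower mean levels in co-cultures than in PA6 mono-cultures. Without growth factors 6 of 7 were called lower, against 44.2% of all genes called and 21.8% called lower. TWIST2 differed most, by -5.75 ± 0.46 (53.9-fold; adjusted p = 1.71e-07), followed by SNAI2 at -4.52 ± 0.16 (22.9-fold; 7.93e-11) and SNAI1 at -3.07 ± 0.18 (8.42-fold; 1.08e-08). The TWIST2 value rests in part on the co-culture array where it was not detected, and was -4.84 without that array (-GFs replicate 1) and -6.67 without -GFs replicate 2. TWIST1 (-1.82), ZEB2 (-1.19) and ZEB1 (-1.05) were called with smaller differences. PRRX1 by its brightest probe, at -0.82 ± 0.39, was not called and its groups overlapped (adjusted p = 0.0837). The other PRRX1 probes detected on all arrays gave -1.43 ± 0.35, which was called (adjusted p = 0.00265), and -0.68 ± 0.30, which was not (0.0641).

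The culture differences of SNAI2 and TWIST1 were smaller with BMP4, which restates the BMP4 differences of 2.28 and 1.58 given above. For TWIST1 a part came from the lower PA6 mean with BMP4 (10.64 against 11.09 without growth factors). With BMP4 the difference between co-cultures and PA6 mono-cultures was -2.24 ± 0.16 for SNAI2 and -0.24 ± 0.17 for TWIST1, and the latter was not called (adjusted p = 0.25). With BMP4 5 of 7 members were called lower, against 42.5% of all genes called and 20.4% called lower. The second PRRX1 probe was called lower with BMP4 too (-1.14 ± 0.35, adjusted p = 0.0115). With FGF2 all 7 were called lower, against 46.4% and 23.0%, with TWIST2 at -4.42 ± 0.41 and SNAI2 at -3.03 ± 0.14. PRRX1 with FGF2 (-1.11 ± 0.35, adjusted p = 0.0124) was no longer over the limit on size without co-culture FGF2 replicate 1 (-0.87), co-culture FGF2 replicate 2 (-0.96) or PA6 FGF2 replicate 3 (-0.96). Without growth factors ZEB2 lost its call without PA6 -GFs replicate 1 (-0.99), and PRRX1 was called without co-culture -GFs replicate 2 (-1.39) or PA6 -GFs replicate 3 (-1.01). With BMP4 ZEB1 lost its call without co-culture BMP4 replicate 1 (-0.86). Under median scaling PRRX1 was called without growth factors (-1.04, adjusted p = 0.0659). With no background correction PRRX1 was not over the limit on size with FGF2 (-0.97).

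The ZEB2 probes disagreed on the kind of culture, since the probe listed as ZFHX1B was 0.34 ± 0.32 higher in co-cultures than in PA6 mono-cultures without growth factors and was not called (SE; adjusted p = 0.388). The probe listed as ZFHX1A, the older name of ZEB1, was lower in co-cultures (-1.26 ± 0.37, adjusted p = 0.0087). The members' lower levels in co-cultures stood beside the lower stromal markers given above, such as PDGFRB at means of 8.85 against 12.34 and COL1A1 at 11.58 against 14.06 without growth factors, and the part of the stromal share in them was not tested.

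FOXD3 was read by 1 probe, which was not detected on any of the 16 arrays, with raw intensities of 116.8 to 166.9 and detection p-values of at least 0.315. No level or change can be given for it. Other genes of the neural crest and the neural plate border were measured. Of a list of 15, 11 were tested. Without growth factors 8 were called higher and 3 lower in co-cultures than in PA6 mono-cultures. Of all 14829 genes 3320 were called higher and 3233 lower there. TFAP2B, an AP-2 factor of the crest, was at least 28.6-fold higher in co-cultures and ZIC1, a border gene, at least 17.7-fold, since neither was detected in -GFs PA6 mono-cultures. SOX10, which marks migrating crest, was at least 1.65-fold higher, at a mean level of 7.39. SOX9, another crest factor that cartilage also expresses, was lower in co-cultures (-1.16 ± 0.15, adjusted p = 1.36e-05).

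With BMP4 in co-cultures 2 of these 11 genes were called higher, against 3.76% of all genes called and 2.28% called higher. The median change of the 11 was 0.40, beside -0.0015 over all genes. Only 1 of the 2 calls was kept with a replicate block, median scaling, no background correction or a block for column runs. TFAP2C rose by 2.01 ± 0.23 (adjusted p = 0.0131) and ETS1 by 1.01 ± 0.24 (0.0903), the latter losing its call without any 1 of the 7 co-culture arrays (0.74 to 1.29). TFAP2C also rose with FGF2, by 2.25 ± 0.21 (adjusted p = 0.00449), as 1 of 11 called, against 7.42% of all genes. The median with FGF2 was -0.17, beside -0.0579 over all genes. TFAP2C is also an AP-2 factor of germ cells, trophoblast and surface ectoderm.

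Epithelial genes, among them known targets of SNAI and ZEB repressors, were looked at in the same co-cultures. Of 13 tested, 5 were called higher with BMP4 and none lower, against 3.76% of all genes called and 2.28% called higher. All 13 were above their -GFs mean, and the median change was 1.65, beside -0.0015 over all genes. The desmosomal gene DSP rose at least 4.36-fold (adjusted p = 0.00143) and the splicing factor ESRP2 at least 4.15-fold (0.00738), both undetected without growth factors. CLDN4 rose by 2.11 ± 0.29 (0.0231), CLDN6 by 1.90 ± 0.24 (0.0156) and the simple epithelial keratin KRT18 by 1.13 ± 0.19 (0.0401). Without BMP4 replicate 1 only 2 of these 5 were still called, with CLDN4 at 2.20 (adjusted p = 0.123), CLDN6 at 1.93 (0.103) and KRT18 at 1.26 (0.141). KRT18 also lost its call without -GFs replicate 1 (1.22, 0.11), -GFs replicate 2 (1.05, 0.152) or BMP4 replicate 2 (1.01, 0.152). CDH1, at 1.65 ± 0.41, was not called with BMP4 (adjusted p = 0.107).

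With FGF2, 2 of the 13 epithelial genes were called, both higher, against 7.42% of all genes called (751 of 14829 higher). The median change of the 13 was 0.25, beside -0.0579 over all genes. CDH1 rose by 2.37 ± 0.37 (adjusted p = 0.0171) and CLDN4 by 1.94 ± 0.27 (0.0111). Mesenchymal genes gave no call by limma with either factor in co-cultures among 15 tested, with 1 at an unadjusted p under 0.05 with BMP4 and 0 with FGF2. With BMP4, 14 of the 15 were above their -GFs mean and the median was 0.23, and with FGF2 9 were and the median was 0.06. VIM, which encodes vimentin, differed by 0.02 ± 0.19 with BMP4, and FN1, which encodes fibronectin, by 0.26 ± 0.31.

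**Figure D3:**
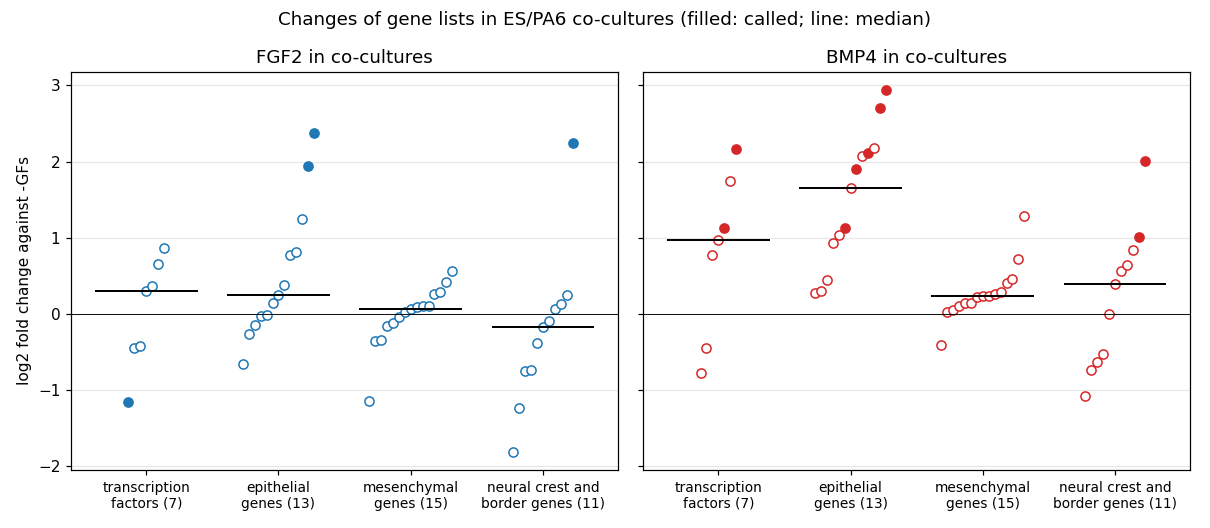
Log2 fold change against -GFs in co-cultures for each tested transcription factor and each tested gene of 3 lists, with the list's median as a line and called genes filled. With BMP4 the epithelial genes had a median of 1.65 and the mesenchymal genes one of 0.23.

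Partners and regulators of these factors were measured too, in comparisons where 3.76% of all genes were called with BMP4 and 7.42% with FGF2. FOXC2, a forkhead factor of mesenchyme from a list of other EMT regulators, was called with BMP4 (at least 1.82-fold; adjusted p = 0.0838). Of 4 tested ID genes and helix-loop-helix partners, ID3, an inhibitor of such factors and a known BMP target, was called with BMP4 (1.33 ± 0.29, adjusted p = 0.0757). Of 6 tested primitive streak genes, WNT3 was called with BMP4 (at least 3.81-fold; 0.066) and FGF4 with FGF2 (2.40 ± 0.28, 0.00766). The others were not called, 2 of the 6 were higher with BMP4 and 1 with FGF2, and the medians were -0.40 and -0.44. The calls of FOXC2, ID3 and WNT3 with BMP4 were each lost without any 1 of the 4 arrays compared, with adjusted p from 0.172 for FOXC2 without -GFs replicate 2 to 0.319 for FOXC2 without BMP4 replicate 1. Those of FOXC2 and WNT3 were also lost without FGF2 replicate 1 (adjusted p = 0.116 and 0.104) and that of ID3 without FGF2 replicate 2 (0.112).

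The summed levels of epidermal, endothelial, pluripotency and neural markers did not overlap between -GFs and BMP4 co-cultures. The summed level of 4 epidermal markers (KRT5, KRT14, KRT15 and TRP63) was 7.99 to 8.19 without growth factors, 7.8 to 9.11 with FGF2 and 13.67 to 14.83 with BMP4, where all 4 were detected on both arrays. The part of epidermal cells in the changes of the epithelial genes was not tested either. The 6 endothelial markers summed to 8.9 to 9.14 without growth factors, 10.95 to 11.65 with FGF2 and 10.3 to 10.65 with BMP4. Only PECAM1 and TEK of these were tested, and both were called higher with each factor, while CDH5, KDR, TIE1 and ICAM2 were not detected throughout any group. The 6 pluripotency markers, whose cells express CDH1 at a high level, summed to 15.24 to 15.43, 16.76 to 16.93 and 16.05 to 16.36, and their part in the fall of ZEB2 and the rise of CDH1 was not tested. The 6 neural markers summed to 13.35 to 14.23, 13.39 to 13.56 and 12.77 to 12.96. Of these only NES, DCX and MAP2 were tested, while SOX1, PAX6 and TUBB3 were not detected throughout any group. NES was called lower with FGF2 (-1.29 ± 0.23, adjusted p = 0.0249) and DCX with BMP4 (-1.54 ± 0.35, 0.0852). The part of neural cells in the lower levels of ZEB1 and ZEB2 was not tested. Of the 7 stromal markers none was called by limma with either factor in co-cultures, and 0 with FGF2 and 1 with BMP4 had an unadjusted p under 0.05. With BMP4, 6 of them were higher, with a median of 0.23 and the largest difference for LUM (1.20 ± 0.44, adjusted p = 0.264), and with FGF2 4 were, with a median of 0.06. Their part in the changes of the transcription factors was not tested. Of 4 tested neural crest markers none was called by limma with either factor. At an unadjusted p under 0.05 there were 0 with FGF2 and 1 with BMP4, and 2 of the 4 were higher with each factor. Mean levels in -GFs, FGF2 and BMP4 co-cultures were 9.74, 9.87 and 10.14 for TFAP2A and 7.39, 7.64 and 6.76 for SOX10. They were 8.48, 7.24 and 8.48 for NGFR and 7.61, 6.86 and 6.54 for PAX3, and FOXD3 was undetected throughout.

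**Figure D4:**
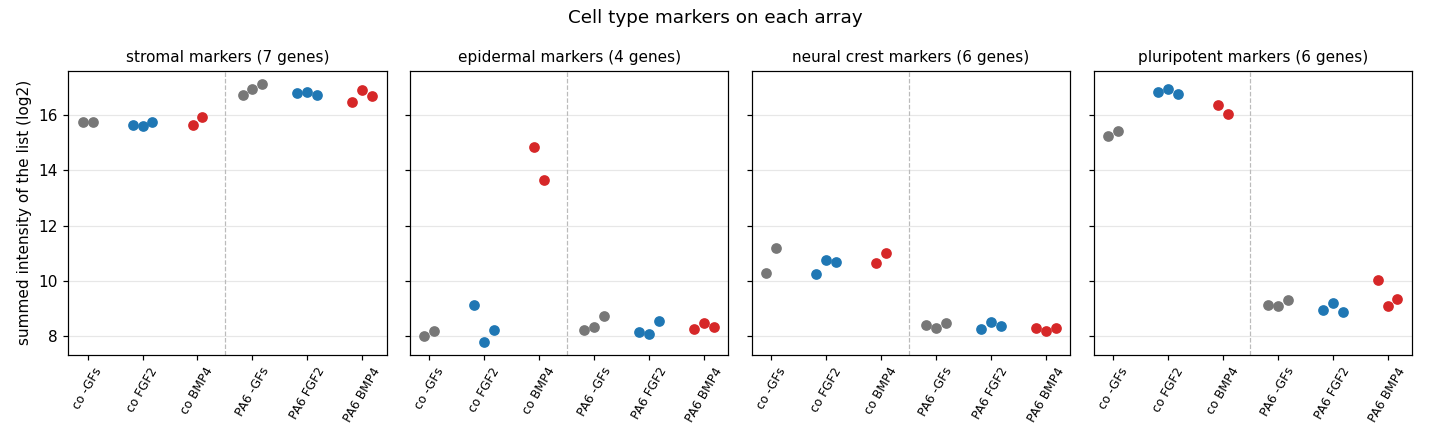
Summed normalized intensity (log2) of 4 marker lists on each array, co-cultures left and PA6 mono-cultures right of the dashed line. Epidermal markers stood at 13.67 to 14.83 with BMP4 in co-cultures, against 7.8 to 9.11 in all other co-cultures.

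Among the 7 co-culture arrays the transcription factors varied together to different degrees, given as Pearson correlations for description only, since the arrays share 3 groups and one normalization. SNAI1, SNAI2, TWIST1 and TWIST2 correlated with each other at 0.67 to 0.94 over 6 pairs, and ZEB1 with ZEB2 at 0.90. Between a SNAI or TWIST gene and a ZEB gene the values were -0.69 to -0.27. The same pairs ran from 0.73 to 0.89 over all 16 arrays and from -0.46 to 0.67 over the 9 PA6 arrays. In co-cultures the genes closest to SNAI2 among all tested were TLCD1 (0.982), SV2B (0.981) and DSP (0.974). Those closest to TWIST1 were PEG3 (0.995), LOC381533 (0.994) and BNC1 (0.988). ZEB2 was closest to RAMP2 (0.996) and YPEL1 (0.992), and TWIST2 to CAST (0.996), HAS2 (0.986) and FKBP10 (0.982).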

How the data were processed

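RNA of 16 cultures had been read on Illumina MouseWG-6 v2.0 BeadChips, 1 array each. The deposited table held, per probe and array, an average bead intensity that the authors had not normalized between arrays, and a deposited detection p-value, exported with GenomeStudio 2011.01 per the labels. The spline-normalized values of the study were not used here.

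Background was removed by limma's nec (normexp, its parameters inferred from detection p-values, offset 16), followed by quantile normalization and log2 (limma 3.58.1, R 4.3.3). A probe was kept if detected throughout 1 or more groups (20880 probes), and the probe of highest mean stood for its gene (14829 genes). limma models were fitted to 7 co-culture arrays, 9 PA6 arrays, or all 16 for comparisons between kinds of culture, and tested on simulated data. A group undetected on every array was given a bound from the dimmest detected probes, written as at least so many fold. Older array names, such as those of ESRP2, TFAP2B and TFAP2C, were matched to current symbols.

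All 8 transcription factors were described, with up to 4 called genes of each list by size, genes whose role a sentence needed, and the 3 genes most correlated with a member. Some results of the list of other EMT regulators are not reported here. The members and lists were chosen with earlier results of these data known. Alternatives covered normalization, filters, probes, thresholds, blocks and each array left out.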

Additional observations from a re-analysis of the deposited data

Results flagged for a closer look

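For 4 results the effect of a factor differed between co-cultures and PA6 mono-cultures by the test of the difference (limma, all 16 arrays). With FGF2 the difference for SNAI2 was 1.49 on the log2 scale (adjusted p = 0.00143), from 0.87 in co-cultures and -0.62 in PA6 mono-cultures. With BMP4 it was 2.28 for SNAI2 (0.000163), from 2.17 and -0.11, and 1.58 for TWIST1 (0.00323), from 1.13 and -0.45. For SNAI1 it was 1.003 (0.0557), from 0.97 and -0.04, while the dimmer SNAI1 probe gave -0.64 (0.757), from 0.35 and 0.99.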

How the results depend on the processing

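SNAI2 kept its call with BMP4 in co-cultures and both of its differences between kinds of culture under all alternatives run, and TWIST1 its BMP4 difference. With 2 or 3 arrays per group, counts of called members were 0 to 1 for FGF2, 1 to 2 for BMP4 and 0 to 1 for BMP4 against FGF2 when each co-culture array was left out, and 1 to 2 for the FGF2 difference and 2 to 4 for the BMP4 difference when each of 16 was. The count with FGF2 in co-cultures was 0 with a replicate block, at an adjusted p under 0.05 or with a block for runs of columns in the table, and 2 with no minimum fold. With BMP4 it was 1 with no background correction, with probes detected on all 16 arrays, with no filter, at an adjusted p under 0.05 or with the column-run block, in each case without TWIST1. It was 2 with median scaling, where TWIST1 (1.18, adjusted p = 0.12) gave way to TWIST2, and 3 in the fit to all 16 arrays, where TWIST2 was added. For BMP4 against FGF2 it was 0 with the replicate block and 2 with median scaling, where PRRX1 was added. Median scaling moved the median of all genes to 0.29 in that comparison, -0.21 with FGF2 in co-cultures and 0.24 for the BMP4 difference, and called 315 of 494 genes higher against 112 of 214, with 557 of 741 against 732 of 1175 for the FGF2 difference and 466 of 602 against 390 of 630 for the BMP4 difference. Under it small changes turned sign, namely ZEB1 between BMP4 and FGF2 (0.28), ZEB1 with FGF2 (-0.00443) and ZEB2 with BMP4 (-0.15) in PA6 mono-cultures, and the BMP4 differences of PRRX1 (0.21) and ZEB1 (0.19). The column-run block, chosen after seeing the data because the table names no chip, turned ZEB1 between BMP4 and FGF2 (0.027) and its BMP4 difference (0.041). The cause of these changes was not tested. Replicate numbers were not taken to pair the samples, since same-number correlations of deviations ran from -0.198 to 0.282 in co-cultures and from 0.069 to 0.199 in PA6 mono-cultures, not all over 0.1. As a hint from the data, every PA6 array correlated best with its own number, and co-culture arrays of the same column run correlated at 0.097 to 0.282. The column-run block ended the calls of ZEB2 with FGF2 (-0.96), TWIST1 with BMP4 (1.12, adjusted p = 0.117) and the SNAI1 difference (0.93). The replicate block gave ZEB2 with FGF2 a change of -1.22 (adjusted p = 0.128) and SNAI2 between BMP4 and FGF2 one of 1.28 (0.149). Small changes also turned sign when an array was left out, with ranges of -1.01 to 0.13 for PRRX1 and -0.26 to 1.57 for TWIST2 with FGF2 in co-cultures, -0.25 to 0.205 for ZEB1 between BMP4 and FGF2, -0.34 to 0.025 for PRRX1, -0.050 to 0.19 for ZEB1 and -0.34 to 0.12 for ZEB2 with FGF2 in PA6 mono-cultures, and -0.11 to 0.049 for SNAI1, -0.24 to 0.026 for SNAI2 and -0.14 to 0.20 for ZEB2 with BMP4 there. The ranges were -0.86 to 0.28 for the FGF2 difference of PRRX1, and -0.58 to 0.56 and -0.27 to 0.19 for the BMP4 differences of PRRX1 and ZEB1.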
